A study of Mus musculus with 8 samples.

Results

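Transcripts of 9 hyaluronan genes were followed in 8 subcutaneous MC38 tumors, MC38 being a mouse colon adenocarcinoma cell line. The genes were the hyaluronan synthases Has1, Has2 and Has3, the hyaluronidases Hyal1 and Hyal2, the receptor Cd44, and the matrix partners Ptx3, Tnfaip6 and Vcan. They were chosen by name from earlier results of the contrast between photoconverted and control tumors in these same libraries, in which Has1 and Ptx3 stood high, and make up 9 of the 24421 genes in the count table. Their values between the groups are therefore given as a description, and calls of members by the fits across all genes are listed only to show how they vary with the setting.

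All 8 tumors grew from 250000 MC38 cells given to female B6 Kaede mice aged 9 weeks. Kaede, a fluorescent protein that turns from green to red under violet light, is carried by the host mice of both groups. The 4 photoconverted tumors received 3 min of 405-nm violet light on day 10, at a diameter of about 5 mm, and were taken 5 h later. The 4 control tumors were not exposed to light and were collected at the same time. Whole tumors went into 1 library each, so the RNA is that of tumor, stromal and immune cells together, and the sources used here do not say which cells a transcript came from. In such bulk libraries, more cells of a type and more RNA per cell cannot be told apart.

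Hyaluronan is a long, unsulfated sugar chain that the synthases extrude through the plasma membrane, using activated glucuronic acid and N-acetylglucosamine from the cytosol. The chain is bound on cells by Cd44, is loaded with the proteoglycan versican (Vcan), and is cross-linked when the enzyme TSG-6 (Tnfaip6) moves heavy chains of inter-alpha-inhibitor from serum onto it, a step in which the long pentraxin Ptx3 takes part. This assembly is best known from the expanding cumulus around the ovulated egg and from inflamed tissue, and hyaluronan is a common component of tumor stroma.

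Total counts ran from 16735293 to 35844417 in photoconverted and from 12576615 to 29439901 in control tumors. Rn45s, the precursor of ribosomal RNA, took 4.14%, 9.65%, 4.60% and 21.9% of the counts of the photoconverted tumors in order of their numbers. It took 2.70%, 35.7%, 4.70% and 23.2% of those of the controls. The libraries with more than 10% Rn45s, those of photoconverted tumor 4 and of controls 2 and 4, were set apart as a class. Photoconverted tumor 2, at 9.65%, lay just under this limit and was counted among those with a low share. Values are CPM, counts relative to library size after TMM normalization, and 3 counts corresponded to between 0.0751 and 0.321 CPM depending on the tumor. Of the 24421 genes, 14468 passed the expression filter, among them 8 of the 9 members, and Has3 did not. Of 8 epithelial markers, 5 did not pass the filter, among them Cdx2 with 0 counts in every tumor, so the colon epithelial origin of the line was barely seen in these libraries (summed level 3.83 to 6.66 CPM in photoconverted and 3.60 to 5.86 CPM in control tumors).

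Has1, the synthase with the widest difference, lies at chr17:17843323-17855205 on the minus strand (GRCm38, mm10; ENSMUSG00000003665.7). The 233 bases upstream of its annotated gene are shown because they hold the full cyclic AMP response element, in capitals, 83 to 76 bases before the RefSeq start (GRCm38.p6, chr17:17855206-17855438, minus strand). The 8 letters TGACGTCA, searched on both strands, occur in 1.55% of the 32851 RefSeq windows of 250 upstream bases.
Has1 upstream: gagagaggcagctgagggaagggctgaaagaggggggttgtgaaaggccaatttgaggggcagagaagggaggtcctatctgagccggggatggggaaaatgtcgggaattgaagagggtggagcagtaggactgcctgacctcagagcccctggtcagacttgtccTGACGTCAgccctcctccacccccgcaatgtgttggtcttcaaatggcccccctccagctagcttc

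Has1 measured 4.45, 4.96, 7.56 and 0.342 CPM in the photoconverted tumors, which are 178, 157, 192 and 5 counts. Control tumors 1 to 4 had 0.514, 0.428, 0.853 and 0.427 CPM, from 18, 4, 24 and 7 counts. Photoconverted tumors 1 to 3 were thus above every control, whereas photoconverted tumor 4 was below all of them. The means were 4.33 ± 2.99 against 0.556 ± 0.202 CPM (SD, n = 4 each), a ratio of 7.79, and the fitted log2 fold change was 2.92 (SE 0.72). Within the low Rn45s class (under 10%, 3 photoconverted and 2 control tumors) the ratio of means was 8.28. Photoconverted tumor 4 set against the 2 controls with a high share gave 0.799.

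Has2, usually the main synthase of mesenchymal cells, lies at chr15:56665627-56694539 on the minus strand. It measured 14.2, 8.81, 13.0 and 3.49 CPM in photoconverted tumors and 7.94, 3.64, 6.68 and 5.68 CPM in control tumors. The pattern was that of Has1 on a smaller scale, with photoconverted tumors 1 to 3 above all controls and photoconverted tumor 4 lowest of all 8. The means were 9.85 ± 4.83 and 5.98 ± 1.82 CPM and the log2 fold change 0.71 (SE 0.40). The exons of Has2 share 182 bases, 4.30% of their length, with the antisense gene Has2os, and the strand setting of the counting is not given in the sources used here.

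Has3, on chr8 at 106870242-106884566, had 62 counts in all. They were 15, 12, 18 and 5 in photoconverted tumors and 3, 4, 3 and 2 in control tumors, so the controls lay at about the level of 3 counts. In CPM the photoconverted tumors had 0.375, 0.379, 0.709 and 0.342 and the controls 0.0857, 0.428, 0.107 and 0.122. Control tumor 2, the shallowest library, reached the photoconverted values with 4 counts. A fit without the expression filter gave a log2 fold change of 1.56 (SE 0.58), which rests on these few counts, and 352 bases of its exons (5.52%) overlap Chtf8 on the opposite strand.

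Divided by exon length, the 3 synthases can be set side by side. Has2 made up most of the synthase transcripts in every tumor, between 84.1% and 93.6% in the controls. Has1 held 22.5%, 33.9%, 34.6% and 7.95% of them in the photoconverted tumors, beside 5.69%, 9.28%, 10.6% and 6.51% in the controls. Synthase transcripts together came to 4.39, 3.24, 4.84 and 0.952 CPM per kb of exon in photoconverted tumors, and to 2.00, 1.02, 1.78 and 1.45 in controls. In photoconverted tumors 1 to 3 both the summed level and the Has1 share were thus above every control, and in photoconverted tumor 4 the summed level was below every control.

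**Figure D1:**
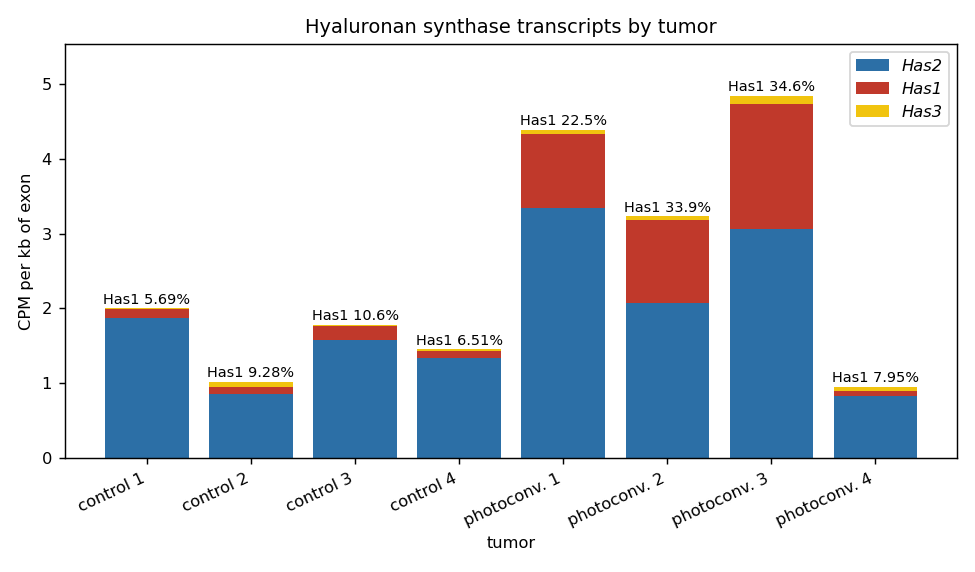
Stacked bars give the level of Has2, Has1 and Has3 (CPM per kb of exon, linear axis from 0) in each of the 8 tumors, with the share of Has1 above each bar. The Has1 segment makes up 22.5% to 34.6% in photoconverted tumors 1 to 3 and at most 10.6% in the other 5.

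Ptx3 encodes a secreted pattern recognition protein that is induced by inflammatory cytokines in stromal and myeloid cells and is stored in neutrophil granules. The gene lies at chr3:66219910-66225805 on the plus strand. The sequence upstream of its RefSeq start is shown (GRCm38.p6, chr3:66219637-66219886, plus strand) because 57 to 50 bases before the start it holds, in capitals, a match to the C/EBP pattern TTGCNNAA on the opposite strand. That pattern occurs in 9.56% of the windows.
Ptx3 upstream: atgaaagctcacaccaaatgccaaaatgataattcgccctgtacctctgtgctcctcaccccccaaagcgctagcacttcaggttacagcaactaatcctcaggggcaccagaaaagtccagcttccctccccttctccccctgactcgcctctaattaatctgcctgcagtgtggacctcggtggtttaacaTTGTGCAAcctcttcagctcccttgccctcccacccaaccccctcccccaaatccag

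Ptx3 measured 20.2, 36.3, 32.1 and 4.44 CPM in the photoconverted tumors (806, 1150, 815 and 65 counts). The control tumors measured 2.88, 6.96, 1.67 and 4.09 CPM (101, 65, 47 and 67 counts). Photoconverted tumors 1 to 3 were again above every control, and photoconverted tumor 4 fell among the controls. The means were 23.3 ± 14.3 and 3.90 ± 2.26 CPM, a ratio of 5.96, with a log2 fold change of 2.64 (SE 0.63). Unlike Has1, Has2, Cd44, Tnfaip6 and Vcan, Ptx3 was higher in the 2 controls with a high Rn45s share than in the 2 with a low one, so its ratio among the 5 tumors under 10% was larger (13.0), while photoconverted tumor 4 against the high-share controls gave 0.804.

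Tnfaip6 encodes TSG-6, the secreted enzyme that places heavy chains on hyaluronan, and lies at chr2:52038009-52056686 on the plus strand. The 146 bases before the annotated gene (GRCm38.p6, chr2:52037863-52038008, plus strand) are shown for the AP-1 pattern TGANTCA, in capitals, 142 to 136 bases before the RefSeq start. AP-1 matches occur in 6.75% of the windows.
Tnfaip6 upstream: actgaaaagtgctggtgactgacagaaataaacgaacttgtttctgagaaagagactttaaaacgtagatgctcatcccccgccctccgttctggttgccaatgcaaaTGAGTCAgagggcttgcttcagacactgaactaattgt

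The photoconverted tumors had 22.5, 27.2, 34.1 and 6.70 CPM of Tnfaip6, and the controls had 9.76, 4.82, 11.1 and 5.55 CPM. Photoconverted tumors 1 to 3 stood above all controls and photoconverted tumor 4 above only the 2 controls with a high Rn45s share. The means were 22.6 ± 11.6 and 7.82 ± 3.10 CPM and the log2 fold change was 1.52 (SE 0.46). The ratio was 2.67 among the tumors with a low Rn45s share and 1.29 for photoconverted tumor 4 against the high-share controls, so that Tnfaip6, Vcan, Cd44 and Has3 were above 1 in both classes.

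Windows were found for 7 of the 9 members, which left out Has2 and Has3. The Hyal2 window, at chr9:107568913-107569162, lies inside the gene as annotated above, and it held an NF-kB consensus match (238 to 229 bases before the RefSeq start), a motif found in 3.90% of all windows. The windows of Hyal1, Cd44 and Vcan held none of the motifs searched. Paired heat shock units (GAANNTTC, 6.69% of all windows), the TATA box (TATAAA, 12.4%) and the CArG box (1.47%) were found in none of the 7. None of the matches shown overlaps another motif searched. No 2 of the members shared a motif, and a match is a description of the letters only.

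Versican, the large proteoglycan that binds hyaluronan along its length, is encoded by Vcan at chr13:89655312-89742509 on the minus strand. Vcan measured 47.6, 61.9, 71.9 and 30.2 CPM in photoconverted and 56.7, 27.9, 33.9 and 20.0 CPM in control tumors. Here the groups were mixed: control tumor 1 was above photoconverted tumor 1, and only photoconverted tumors 2 and 3 exceeded every control. The means were 52.9 ± 18.1 and 34.6 ± 15.8 CPM and the log2 fold change 0.61 (SE 0.35).

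Cd44, the main cell surface receptor of hyaluronan, lies at chr2:102811141-102901665 on the minus strand. It measured 595, 514, 540 and 341 CPM in photoconverted and 416, 316, 507 and 348 CPM in control tumors. Photoconverted tumors 1 to 3 were above every control, though tumor 2 exceeded control tumor 3 by little. The means of 497 ± 110 and 397 ± 84.7 CPM differed by a log2 fold change of 0.33 (SE 0.21).

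Neither hyaluronidase had photoconverted tumors 1 to 3 all above the controls. Hyal2, which cleaves hyaluronan at the cell surface and lies at chr9:107567945-107572779, measured 24.3, 25.4, 24.5 and 24.8 CPM in photoconverted tumors. In control tumors it measured 28.8, 25.4, 24.4 and 28.2 CPM, so all 8 values fell between 24.3 and 28.8 CPM and the log2 fold change was -0.11 (SE 0.11). Its ratios in the low and high Rn45s classes, 0.929 and 0.926, were the closest of the members.

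Hyal1, the lysosomal hyaluronidase next to it at chr9:107576927-107581710, measured 4.58, 2.37, 3.98 and 1.50 CPM in photoconverted and 3.77, 2.35, 2.20 and 2.56 CPM in control tumors. Only photoconverted tumors 1 and 3 exceeded every control, and photoconverted tumor 4 was lowest of all 8, as for Has1 and Has2. The log2 fold change was 0.19 (SE 0.36), which fell to -0.06 when photoconverted tumor 1 was left out. Of the Hyal1 exon sequence, 1920 bases (50.8%) are shared on the same strand with Naa80, and 159 bases with Hyal3, so its counts may hold reads of those genes or lack reads given to them.

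**Figure D2:**
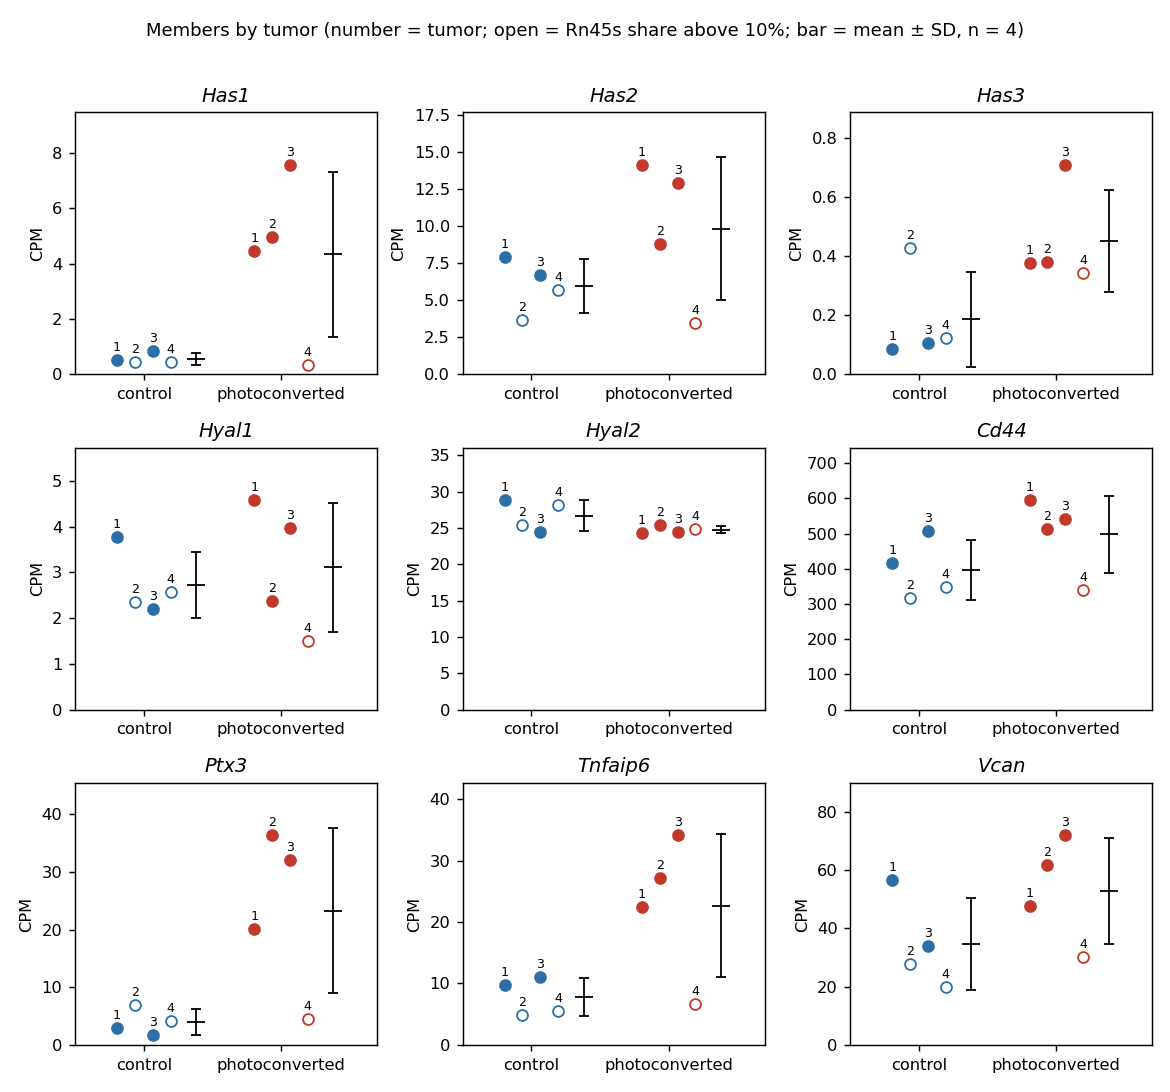
Each panel gives the CPM of 1 gene (linear axis from 0) in every tumor, numbered, with open symbols for an Rn45s share above 10% and a bar for the mean ± SD (n = 4). Photoconverted tumors 1 to 3 lie above all controls for Has1, Has2, Cd44, Ptx3 and Tnfaip6, and photoconverted tumor 4 lies among or below the controls.

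Across the members, 5 of the 8 tested (Has1, Has2, Cd44, Ptx3 and Tnfaip6) had at least 3 photoconverted tumors above every control, a pattern shown by 5% of all tested genes. None of the 8 had groups that did not overlap with the photoconverted tumors higher, beside 0.684% of all tested genes. The highest value of all 8 tumors was in a photoconverted tumor for 8 of the 9 members, all but Hyal2. The share of all tested genes with their highest value in a photoconverted tumor was not computed, so this count has no comparison. The lowest photoconverted value was in photoconverted tumor 4 for 8 of 9 members, Hyal2 again excepted, and for 40.6% of all tested genes. The log2 fold change was above 0 for 7 of 8 tested members and for 46.8% of all tested genes, with medians of 0.66 and -0.01. These counts describe genes that were picked from the same contrast.

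With edgeR's quasi-likelihood test over all 8 tumors, 0 of the 8 tested members were called at an adjusted p under 0.05, as were 0% of all 14468 genes, of which 322 had an unadjusted p under 0.05. DESeq2's Wald test called 0.135% of its genes higher, with Has1 and Ptx3 among them. Without photoconverted tumor 4, edgeR called 0.0745% of genes higher, Has1 among them, and in the 5 tumors with a low Rn45s share it called 0.243%, with Has1, Ptx3 and Tnfaip6. Since the members were picked from this contrast in these tumors, the calls follow from that choice and are no independent support. Leaving out any 1 of the other 7 tumors, controls 2 and 4 included, gave no call, nor did a fit with the log2 Rn45s share as a covariate, in which the log2 fold change of Has1 was 2.84 and that of Ptx3 2.79. The part that Rn45s has in these differences was not tested.

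**Figure D3:**
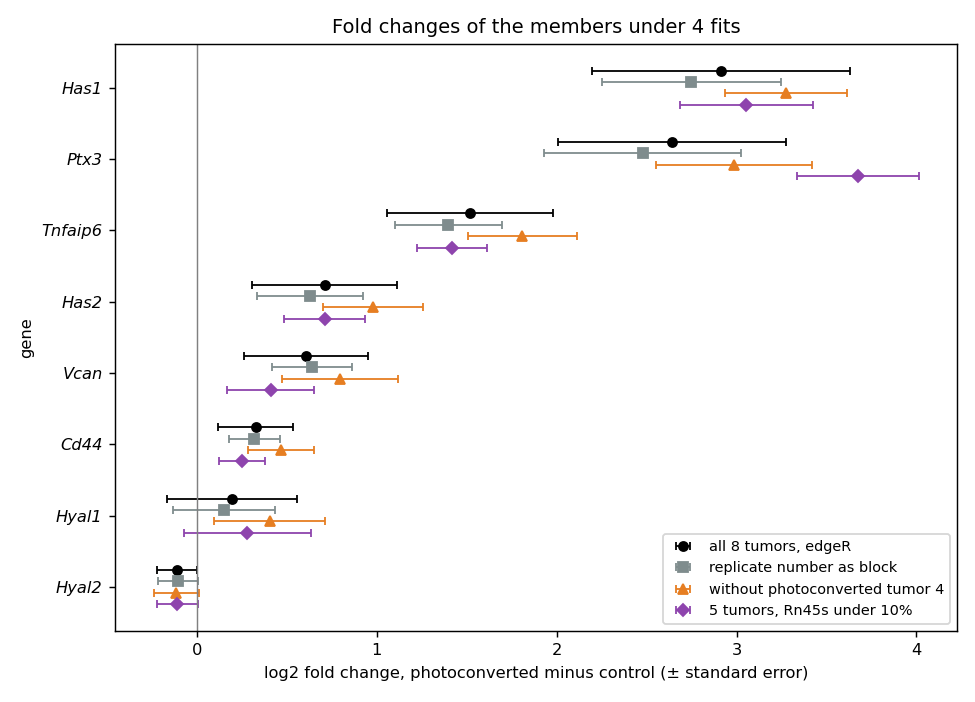
Symbols give the log2 fold change (photoconverted minus control) of the 8 tested members under 4 edgeR fits, with bars for the standard error. Has1 stays between 2.75 and 3.28 in the 4 fits, Ptx3 reaches 3.67 in the 5 tumors with a low Rn45s share, and Hyal2 stays just below 0.

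Tumors with the same replicate number were set side by side as pairs, although the labels state no pairing, and the values are a description only. Ptx3 was higher in the photoconverted tumor of 4 of 4 pairs, with log2 differences of 2.81, 2.38, 4.26 and 0.12. Tnfaip6 was also higher in 4 of 4, by 1.20, 2.50, 1.61 and 0.27. The differences of Has1 were 3.12, 3.53, 3.15 and -0.32, those of Has2 were 0.84, 1.28, 0.96 and -0.70, and those of Vcan were -0.25, 1.15, 1.09 and 0.60. In pair 4, where both tumors had a high Rn45s share, every member other than Has3 differed by at most 0.77 in either direction.

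Per kb of exon, Cd44 was by far the most abundant member, at 58.6 ± 12.5 CPM per kb in controls and 73.4 ± 16.2 in photoconverted tumors. The control order continued with Hyal2 (8.11 ± 0.648), Tnfaip6 (4.57 ± 1.81), Vcan (2.39 ± 1.09), Ptx3 (1.45 ± 0.844), Has2 (1.41 ± 0.429), Hyal1 (0.721 ± 0.189), Has1 (0.123 ± 0.0448) and Has3 (0.0291). Neighbors from Tnfaip6 to Hyal1 overlapped in their ranges, and Vcan and Ptx3, like Ptx3 and Has2, kept their order in 2 of 4 controls, whereas the other neighbors did not overlap. In photoconverted tumors Tnfaip6 (13.2 ± 6.80) and Ptx3 (8.67 ± 5.33) came directly after Cd44 and before Hyal2 (7.51 ± 0.151), and Has1 (0.958 ± 0.661) came next to Hyal1 (0.823 ± 0.376). The ranges of Ptx3 and Hyal2 overlapped there, as did Has1 and Hyal1, which kept their order in 2 of 4 tumors. The place of Tnfaip6 and Ptx3 above Hyal2 rests on photoconverted tumors 1 to 3, since both were below it in photoconverted tumor 4.

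**Figure D4:**
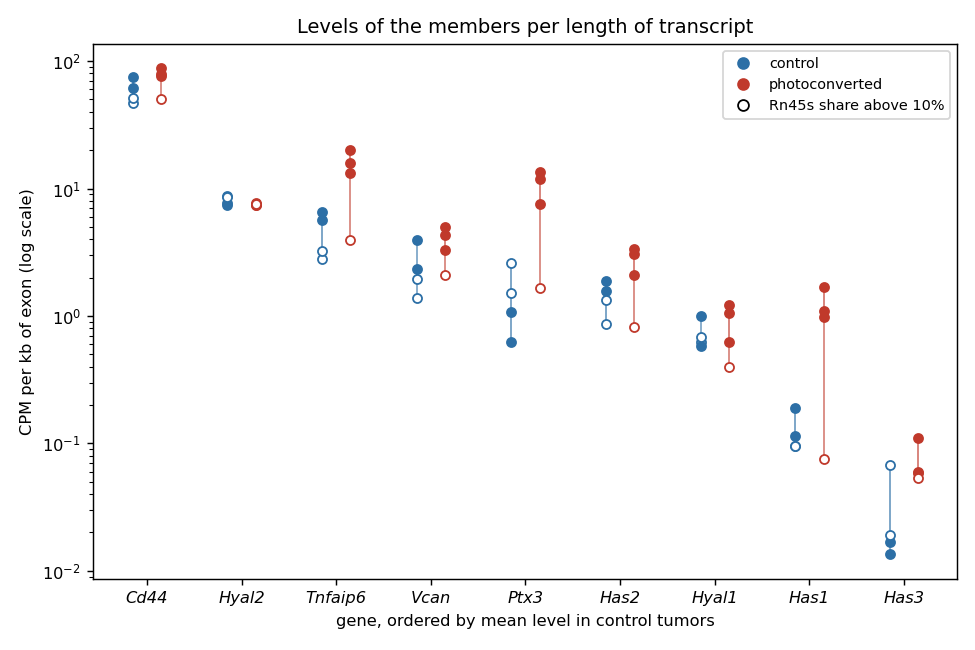
Points give the level of each member in every tumor in CPM per kb of exon on a log axis, ordered by the mean in control tumors, with lines joining the tumors of a group and open symbols for an Rn45s share above 10%. Cd44 lies near 58.6 in controls and Has3 near 0.0291, and the lowest photoconverted point is open for every member other than Hyal2.

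The members differed in how much they varied within a group. The SD of log2 CPM among photoconverted tumors was 1.89 for Has1, 1.38 for Ptx3, 1.04 for Tnfaip6 and 0.91 for Has2, beside a median of 0.23 over all tested genes. That of Has1 was at percentile 99.8 and that of Ptx3 at percentile 99.1, whereas Hyal2, with 0.03, was at percentile 0.525. Among controls the SD was 0.84 for Ptx3 (percentile 92.1), 0.63 for Vcan, 0.59 for Tnfaip6 and 0.42 for Has1 (percentile 60.8), with a median over all genes of 0.34. Ptx3 was thus variable in both groups, and Has1 mainly among the photoconverted tumors. For Has1, Has2, Ptx3 and Tnfaip6 that spread includes photoconverted tumor 4, the lowest photoconverted value of each, from a library with a high Rn45s share. Has1 measured 0.342 CPM (5 counts) in it and 4.45 to 7.56 CPM in photoconverted tumors 1 to 3.

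The likeness between members was measured as Pearson's r of log2 CPM over the 8 tumors, as a description across libraries that differ in depth and Rn45s share. Has1 and Tnfaip6 were most alike (r = 0.966), with Tnfaip6 at rank 14 among the 14467 other genes. Next came Has2 with Cd44 (r = 0.912) and Cd44 with Tnfaip6 (r = 0.911), at ranks 118 for Has2 and 162 for Cd44. Ptx3 ranked 222 for Has1 and 4781 for Cd44, and Hyal1 ranked 617 for Has2. Because r runs over both groups and the members were picked from their contrast, these likenesses are no independent support. Ptx3 had r = 0.859 to Has1, 0.755 to Tnfaip6 and 0.506 to Cd44. Hyal1 was most like Has2 among the members (r = 0.843), and Hyal2 had a negative r with Has1 (-0.49), Cd44 (-0.45) and Tnfaip6 (-0.44).

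Among all tested genes, the pattern most like that of Tnfaip6 was Ugdh (r = 0.993, and 0.991 at lowest when 1 tumor was left out), followed by Dio2 (0.991) and Mtmr7 (0.987). Ugdh is the dehydrogenase that makes activated glucuronic acid, a building block of hyaluronan. It measured 96.3, 97.2, 99.9 and 75.5 CPM in photoconverted and 82.3, 73.6, 85.8 and 75.6 CPM in control tumors, a far narrower range than Tnfaip6. For Has1 the nearest genes were Fat2 (0.983), Slc39a14 (0.978) and Dusp16 (0.978), and for Has2 they were Ubxn4 (0.974), AI506816 (0.974) and Cyth3 (0.971). Cd44 was closest to L3mbtl3 (0.992), Rnf125 (0.985) and Hipk1 (0.982), and Vcan to Dgkg (0.979), Cass4 (0.974) and Ret (0.972). Hyal1 was nearest to Hecw2 (0.966), Dmxl2 (0.957) and Zkscan5 (0.949), and Hyal2 to Ankrd24 (0.958), Hist2h2ab (0.922) and Chmp3 (0.911). The genes nearest to Ptx3 were Mxd1 (0.967), Slc5a5 (0.959) and Trem1 (0.958), the last a receptor of neutrophils and monocytes.

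The endothelium (139 against 123 CPM) and epithelial tumor lists (5.54 against 4.75 CPM) had slightly higher means in photoconverted tumors. Marker lists of 4 other cell types (neutrophil, skeletal muscle, adipocyte and keratinocyte) had means higher by a larger ratio, though not in every tumor that was high for the members. The summed level of the neutrophil list was 59.3, 70.8, 107 and 18.9 CPM in photoconverted tumors and 28.5, 16.3, 21.8 and 17.9 CPM in controls. Of its 9 genes, 8 were in the table and 6 passed the filter, all 6 with a log2 fold change above 0 (median 1.80) and 0 called with edgeR over the 8 tumors, while the granule genes Ngp and Camp were at or near 0. The skeletal muscle list summed to 451, 741, 1491 and 195 CPM in photoconverted tumors and to 193 to 439 CPM in controls, with 10 of 10 genes above 0 (median 1.13), and the adipocyte list to 22.1 to 94.7 and 20.4 to 56.9 CPM. Keratinocyte genes summed to 2.35, 17.7, 20.1 and 2.46 CPM in photoconverted and 1.68 to 4.16 CPM in control tumors. Photoconverted tumor 1, above every control for Has1, Ptx3 and Tnfaip6, was thus within the control range of the keratinocyte list. With 27.4 CPM it was also within that of the adipocyte list. Photoconverted tumor 3 was highest in each of the neutrophil, skeletal muscle, adipocyte and keratinocyte lists, and also in the endothelium and macrophage lists. It was highest for Has1, Has3, Tnfaip6 and Vcan as well. Has2, Hyal1 and Cd44 were highest in photoconverted tumor 1, Ptx3 in photoconverted tumor 2 and Hyal2 in control tumor 1. The part that the cells of these lists have in the members' levels was not tested.

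The lists that differed less between groups were endothelium (101 to 175 against 89.5 to 146 CPM), macrophage (653 to 1567 against 527 to 1402 CPM) and mesothelium (60.0 to 72.9 against 64.9 to 95.7 CPM). Fibroblast genes summed to 3521 to 4824 CPM in photoconverted tumors and reached 12540 CPM in control tumor 2, whose lowest control values of Cd44, Tnfaip6 and Has2 stood beside the highest control value of Ptx3. Every marker list overlapped between groups, and 0 genes of any list were called with edgeR over the 8 tumors. DESeq2's Wald test and the fit of the 5 tumors with a low Rn45s share called the neutrophil genes S100a8 and S100a9, and edgeR without photoconverted tumor 4 called S100a9.

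**Figure D5:**
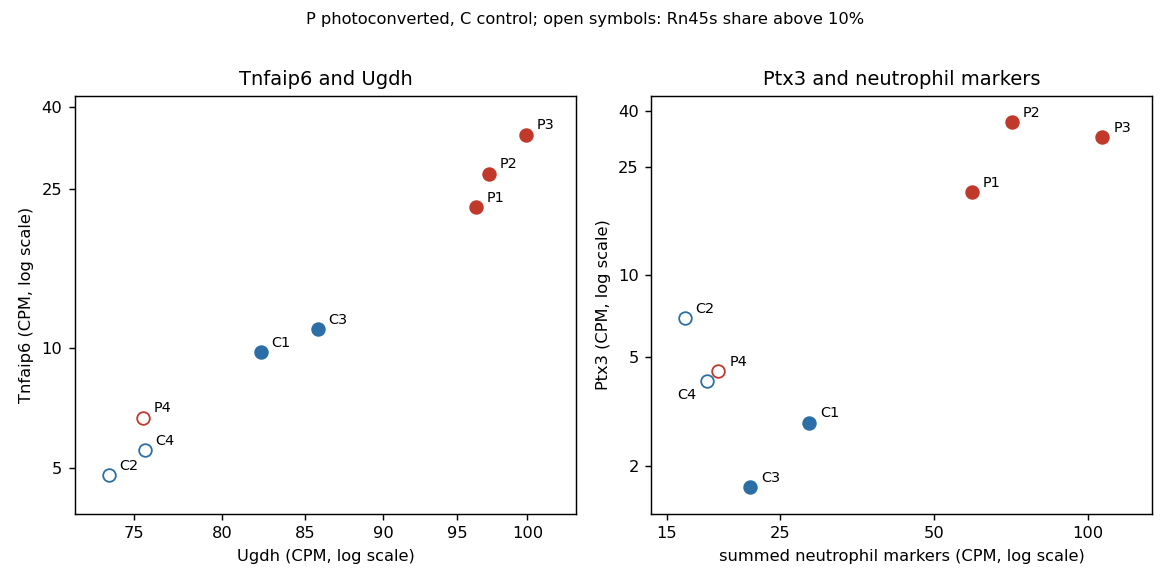
The left panel plots Tnfaip6 against Ugdh and the right panel Ptx3 against the summed neutrophil markers (CPM, log axes) for the 8 tumors, with open symbols for an Rn45s share above 10%. Tnfaip6 and Ugdh lie along 1 line in all 8 tumors. Ptx3 and the neutrophil sum are both highest in photoconverted tumors 1 to 3. Among the controls, Ptx3 is highest in control 2, the shallowest library, which has the lowest neutrophil sum (16.3 CPM). The part of neutrophils in the Ptx3 level was not tested.

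Other genes of hyaluronan metabolism were examined as lists, in which 0 genes were called by edgeR over the 8 tumors. Of 8 genes that make the sugar precursors, all were tested and 6 had a log2 fold change above 0, with a median of 0.13 beside -0.01 over all tested genes. Gfpt2, which diverts glucose to hexosamines, measured 17.4, 14.0, 32.0 and 3.42 CPM in photoconverted and 13.9, 4.92, 5.69 and 3.78 CPM in control tumors, with a log2 fold change of 1.22 (SE 0.61). It was lowest of all 8 in photoconverted tumor 4, as Has1 and Has2 were. Ugdh had 0.22 (SE 0.12) and Uap1, which makes activated N-acetylglucosamine, 0.19 (SE 0.12).

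Of 10 further breakdown genes, 6 were tested and 3 of them were above 0 (median -0.01). The hyaluronan depolymerase Cemip had 4.44 ± 0.399 against 3.68 ± 0.403 CPM, and Tmem2, a cell surface hyaluronidase, had 67.2 ± 8.54 against 57.4 ± 5.99 CPM. Hyal3 was near its floor at 0.382 and 0.440 CPM, Spam1 and Hyal5 had 0 counts, and Hyal4 and Hyal6 had 4 and 1 counts. Of 7 further receptors, 6 were tested and 3 were above 0 (median 0.02). Lyve1, the receptor of lymphatic vessels, measured 10.4 ± 5.16 and 12.1 ± 11.2 CPM, and Tlr4 and Tlr2, which can respond to hyaluronan fragments, had log2 fold changes of 0.21 (SE 0.32) and -0.15 (SE 0.33).

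The matrix and link protein list held 20 genes, of which 7 were tested and 5 were above 0 (median 0.20). Its median was -0.11 without photoconverted tumor 3 and -0.07 without control tumor 4, each with 3 of 7 above 0. Thbs1, thrombospondin 1, which binds TSG-6, measured 406, 513, 566 and 216 CPM in photoconverted and 177, 168, 169 and 212 CPM in control tumors. All photoconverted tumors were above all controls, photoconverted tumor 4 by a narrow margin, with a log2 fold change of 1.23 (SE 0.27). Thbs1 was called by DESeq2's Wald test, without photoconverted tumor 4 and in the 5 tumors with a low Rn45s share, though not by edgeR over all 8. Fgl2 had a log2 fold change of 0.32 (SE 0.31) and tenascin C (Tnc) 0.22 (SE 0.21). The inter-alpha-inhibitor genes Itih1, Itih2, Itih3, Itih4 and Ambp, whose products come mainly from the liver, did not pass the filter. They had 23, 31, 48, 11 and 5 counts in all 8 tumors. Itih5, also on the list, did pass, with 14.1 ± 9.70 and 12.2 ± 10.2 CPM and a log2 fold change of 0.20 (SE 0.69). The link proteins Hapln1 to Hapln4 and the related proteoglycans Acan, Bcan and Ncan did not pass the filter.

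Of 6 versican proteases, 5 were tested and 4 were above 0 (median 0.15). Adamts1 measured 131, 98.9, 154 and 86.6 CPM in photoconverted and 98.2, 56.6, 79.6 and 80.4 CPM in control tumors, with a log2 fold change of 0.58 (SE 0.22). Photoconverted tumors 1 to 3 were above every control, tumor 2 by a narrow margin. Adamts5 had 0.39 (SE 0.49) and Adamts4 0.15 (SE 0.16).

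Other pentraxins were scarce, apart from the neuronal pentraxin receptor Nptxr (102 ± 32.3 and 119 ± 48.5 CPM), the only 1 of 6 tested, with a log2 fold change of -0.22 (SE 0.32). The short pentraxins Crp and Apcs had 18 and 0 counts, Mptx1 had 0, and Nptx1 and Nptx2 had 20 and 73. Among 9 linkers and ligands of Cd44, all tested, 6 were above 0 (median 0.03). Serglycin (Srgn), a proteoglycan of blood cell granules, measured 87.6, 87.4, 121 and 33.1 CPM in photoconverted and 59.0, 38.1, 53.1 and 30.6 CPM in control tumors, with a log2 fold change of 0.86 (SE 0.36). Every control was again below photoconverted tumors 1 to 3. Osteopontin (Spp1) measured 1411 ± 265 and 1114 ± 272 CPM, and Mmp9 30.0 ± 3.69 and 25.9 ± 5.53 CPM.

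Has2, Ptx3 and Tnfaip6 also belong to the program that the ovulatory signal induces in cumulus cells, and 8 other genes of it were listed. Of these, 6 were tested, 6 were above 0, and the median was 0.54. In the 5 tumors with a low Rn45s share 7 were tested, of which 4 were above 0 and 3 below. Ereg, a ligand of the epidermal growth factor receptor, measured 41.7, 23.4, 34.0 and 18.5 CPM in photoconverted and 13.9, 6.85, 9.99 and 15.1 CPM in control tumors. The groups of Ereg did not overlap, and its log2 fold change was 1.35 (SE 0.31), called by DESeq2's Wald test and not by edgeR. Ptgs2, the inducible cyclooxygenase, measured 112, 47.9, 106 and 40.5 CPM against 59.8, 21.3, 34.7 and 38.1 CPM, with a log2 fold change of 0.99 (SE 0.40), and control tumor 1 lay above photoconverted tumors 2 and 4. The prostaglandin receptor Ptger2 had 0.58 (SE 0.55) at 0.995 ± 0.539 and 0.690 ± 0.360 CPM. Pgr, the progesterone receptor, did not pass the filter and was lower in photoconverted tumors (0.129 ± 0.103 against 0.608 ± 0.773 CPM). Sult1e1 had 0 counts.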

How the data were processed

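Bulk RNA-seq of 4 photoconverted and 4 control MC38 tumors was analysed. Per tumor, the authors deposited raw gene counts, listed by symbol, and separately a normalized signal, which equaled the counts divided by DESeq2's size factors (0.416 to 1.77). The submitters' processing notes name Trim Galore, HISAT2, featureCounts, DESeq2 and mm10. The annotation and strand setting are not given in the sources used here. Labels name a SMARTER kit and the study's methods a TruSeq kit, both stranded total RNA.

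Counts were fitted over all genes with edgeR 4.0.16 in R 4.3.3 (TMM, filterByExpr by group, glmQLFit, glmQLFTest, two-sided, Benjamini-Hochberg, threshold 0.05). CPM used the same normalization, and log2 CPM a prior count of 2. Alternatives used DESeq2 1.42.0, limma 3.58.1 on log2 of the normalized signal plus 1, and other scalings, filters and prior counts. Further fits used a replicate block, each tumor left out, an Rn45s covariate and the 5 tumors under 10% Rn45s. The edgeR procedure was tested on simulated data.

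Members, lists and alternatives were chosen with earlier results of these data known. Genes named were the members, the 3 tested genes of each list with the largest absolute log2 fold change, and the 3 genes most like each member in log2 CPM, whereas other genes named were chosen after their values were seen. Levels between genes were divided by the summed exon length of GENCODE M21 (GRCm38), matched by symbol. Motifs were searched in the 250 bases before RefSeq starts (GRCm38.p6). Protein sequences were not used here.

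Both groups carry replicate numbers 1 to 4 in the labels, which state no shared litter or day. Deviations from the group means correlated across genes with r of 0.597, 0.107, 0.407 and 0.623 between same-numbered tumors, all above 0.1. The numbers were used as a block in an alternative fit and to set tumors side by side. The main fit has no block. Between different numbers r ran from -0.600 to 0.482, and it was above that of pair 2 in 3 combinations, each of tumors in the same Rn45s class, so that number and class are not separated by this check. The least different pair of libraries of a group had a chi-square of 23.8 per degree of freedom. The sources do not say that each tumor came from its own mouse, so p-values set the group difference against the spread between these tumors. Total counts of 12576615 to 35844417 set the precision, and floors of 3 counts cover counting error only.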

Additional observations from a re-analysis of the deposited data

Results flagged for a closer look

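In groups of 4, a value was picked out where its gap to the nearest other value took more of the range than Dixon's 95% limit, which chance passes in about 1 of 20 groups. Of the 18 groups examined (9 members in each condition), 2 were picked out, beside 0.9 by chance. Both belonged to Has3. In control tumor 2 it was at 0.428 CPM, with 0.122 CPM in the nearest control, and in photoconverted tumor 3 it was at 0.709 CPM, with 0.379 CPM in the nearest photoconverted tumor. These values are 4 and 18 counts, and 3 counts were worth 0.321 CPM in control tumor 2, near the value that stood out.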

How the results depend on the processing

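edgeR called 0 genes over the 8 tumors, DESeq2's Wald test 24 and the fit of the 5 tumors under 10% Rn45s 42, and leaving out 1 tumor at a time gave 0 to 11, the 11 without photoconverted tumor 4. The log2 fold changes that passed the threshold were those of Has1 (2.94 with DESeq2, 3.05 in the 5 tumors) and Ptx3 (2.60 and 3.67) in both settings and of Tnfaip6 (1.42) in the 5 tumors. Leaving out 1 tumor gave 2.52 to 3.28 for Has1, past the threshold without photoconverted tumor 4. Hyal1 ranged from -0.056 to 0.40, below 0 without photoconverted tumor 1. With 1 tumor left out, the median of the breakdown list ranged from -0.057 to 0.20, the highest without control tumor 1. In the 5 tumors it was -0.071. The median of other pentraxins was 2.06 in the 5 tumors, where 2 genes were tested in place of 1. Of the other fold changes of members, 162 kept their direction and their side of the threshold. The 162 include fits with a prior count of 2 or 5 for the fold change. Their adjusted p-values equal those of the main fit, so their side of the threshold was fixed in advance. The 162 leave out Has1 under the stricter filter (1 CPM in at least 4 tumors), which it did not pass. Has3 had values only without the filter, with DESeq2 and in the 5 tumors.

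With the replicate block, 0 genes were called (869 at an unadjusted p under 0.05, beside 322 without it), Has1 had a log2 fold change of 2.75, and no call of a member changed. The cause of these shifts was not tested. Depth limits Has3 and the Has1 values of photoconverted tumor 4 and control tumor 2, at 5 and 4 counts.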
